A study of Rattus with 9 samples.

Results

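Hormone genes were followed through the bile duct tissue of rats after liver transplantation (LT). The set held 8 genes of the 23999 features in the count tables, which carry 23836 different symbols. They were Ins1 (ENSRNOG00000012052) and Ins2 (ENSRNOG00000020405) for the insulins, Gcg (ENSRNOG00000005498) for glucagon, Sst (ENSRNOG00000001837) for somatostatin, Ghrl (ENSRNOG00000010349) for ghrelin, Ppy (ENSRNOG00000020874) for pancreatic polypeptide, Iapp (ENSRNOG00000012417) for amylin and Chga (ENSRNOG00000052549) for chromogranin A, a protein of secretory granules. The genes were chosen by their symbols after earlier results of these data had shown RNA of islet hormones in a few groups of cells, so that their levels in one kind of cell against another are given as a description with no test. Each gene had 1 feature, and all 8 were found.

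Peptide hormones are made as precursors, cut by prohormone convertases and stored in dense granules together with granins. Insulin comes from beta cells of the pancreatic islets, glucagon from alpha cells, pancreatic polypeptide from PP cells, ghrelin from epsilon cells and from the stomach, and somatostatin from delta cells and from D cells of the gut and biliary tree. The bile duct and the pancreas arise from neighbouring parts of the embryonic foregut, and the distal bile duct runs through the head of the pancreas.

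Single-cell RNA sequencing of bile duct tissue covered 9 samples in 20 libraries. The sham group had 3 samples of 1 library each. The ctrl group had LT with ischemic injury of the graft, and the treat group had LT with more arterial flow to the graft after ligation of the splenic and gastroduodenal arteries; each had 1 sample at day 1, day 3 and day 7. Sprague-Dawley rats of both sexes aged 6–8 weeks are given by the study's methods for its animals. The study credits its rat single-cell data to its authors' earlier work, and does not give strain, sex or age for them separately. The labels state neither how many rats stand behind a library nor when the sham tissue was taken. Samples at different days therefore serve as the 3 replicates of the ctrl and treat groups, the libraries of a sample were summed, and p-values measure only the spread between these samples.

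The samples held 21270647 to 290590249 unique molecular identifiers (UMIs, one per captured RNA molecule), and 139415 cells were kept, 2284 to 31635 per sample. Levels are per-million UMI counts (CPM), and intervals cover counting error only. Of the distinct barcodes of these cells, 1.79% occurred in more than one library, among them those of 2 of the cells described next.

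Among the kept cells, a small number held at least 90.1% of the UMIs of each of Ins1, Ins2, Gcg, Sst, Ghrl and Ppy. A cell was called a hormone cell when at least 10 of its UMIs and at least 1% of all its UMIs came from 1 hormone, with Ins1 and Ins2 added up as insulin. There were 64 such cells of 139415. Their leading hormone was insulin in 4, glucagon in 6, somatostatin in 36, ghrelin in 11 and pancreatic polypeptide in 7. These cells held 99.3% of the 90843 Ins1 UMIs in cells, 99.4% of the 75159 Ins2 UMIs, 97.0% of the 13510 Gcg UMIs, 98.9% of the 8169 Ppy UMIs, 94.8% of the 10044 Ghrl UMIs and 90.1% of the 18832 Sst UMIs. Over the other 139351 cells the levels were 0.806 CPM for Ins1, 0.550 CPM for Ins2, 0.491 CPM for Gcg, 2.24 CPM for Sst, 0.624 CPM for Ghrl and 0.105 CPM for Ppy. The cells nearest to the limit were led by Sst on both sides. The 3 just inside had 1.01%, 1.06% and 1.13% of their UMIs from Sst, and the 3 just outside 0.943%, 0.927% and 0.846%.

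**Figure D1:**
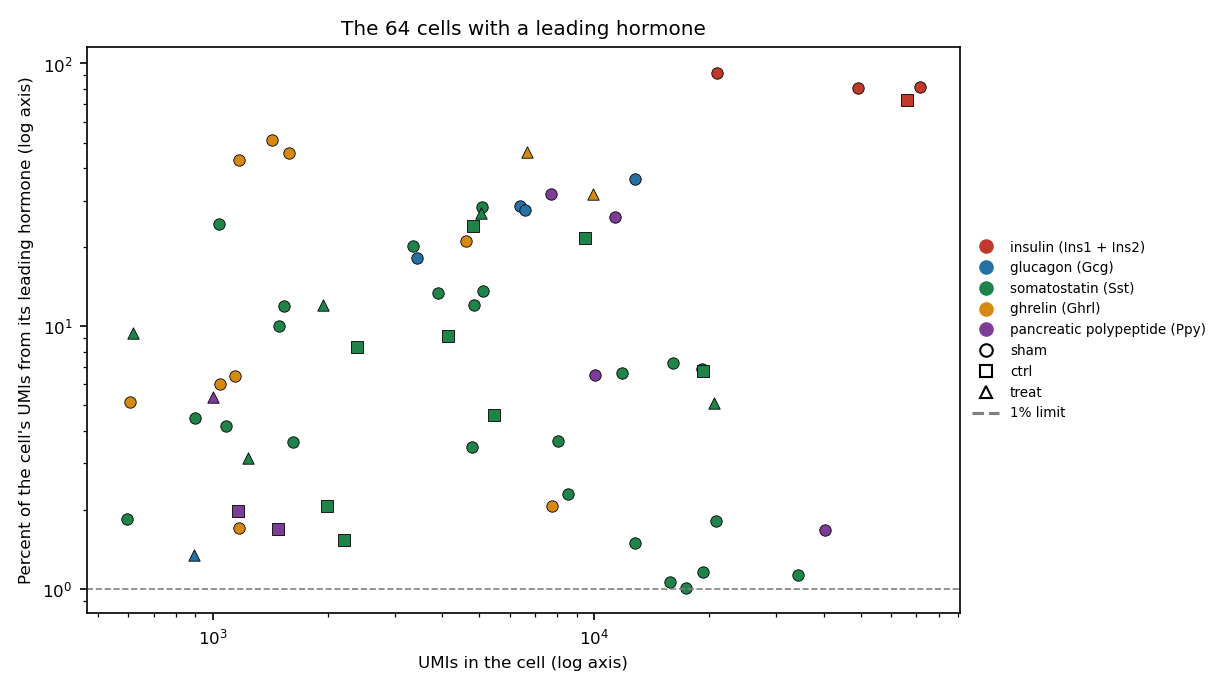
Each point is 1 of the 64 hormone cells, with its UMIs on the x axis (log axis) and the percent of them from its leading hormone on the y axis (log axis); colour gives the hormone, shape the group, and the dashed line the 1% limit. The 4 insulin cells stand at 72.3% to 92.2%, above the 36 somatostatin cells at 1.01% to 28.4%.

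The insulin cells were few and very rich in hormone RNA. Sham 2 had 2, with 39636 insulin UMIs of 49240 and 19361 of 21004. Sham 3 had 1, with 58126 of 71550, and ctrl day 3 had 1, with 47731 of 66048. Insulin thus made up 80.5%, 92.2%, 81.2% and 72.3% of their UMIs, and no other sample had such a cell. The ratio of Ins1 to Ins2 UMIs was 0.950, 1.74, 1.13 and 1.39. The rat genes Ins1 and Ins2 are close copies, so reads may be split between them and the ratio is uncertain. All 4 cells carried Iapp, the hormone that beta cells release with insulin, at 1193 CPM against 0.0862 CPM in the other cells. None of them had a UMI of Gcg, Sst, Ghrl or Ppy.

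The glucagon cells numbered 1 in sham 2, 4 in sham 3 and 1 in treat day 1. The 5 sham cells had 6.87% to 36.4% of their UMIs from Gcg and 6 to 8 detected endocrine markers. The treat day 1 cell had 1.34%, on 895 UMIs, and no endocrine marker. The pancreatic polypeptide cells numbered 2 in sham 2, 2 in sham 3, 2 in ctrl day 7 and 1 in treat day 1. Their share of Ppy ran from 1.67% to 31.8%. The 2 ctrl day 7 cells lay in a cluster named NK-like, had 1.69% and 1.97% of their UMIs from Ppy, and had no endocrine marker.

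The somatostatin cells were the most numerous and the most widely spread. Sham 1 had 1, sham 2 had 10, sham 3 had 12, ctrl day 1 had 7, ctrl day 7 had 1, treat day 1 had 1, treat day 3 had 1 and treat day 7 had 3. Only ctrl day 3 had none. Of its 7513 cells, 6820 came from 1 library, and its other libraries had 380 and 313. Of the 7 at ctrl day 1, 6 came from 1 of its 3 libraries. Sst ran from 1.01% to 28.4% of a cell's UMIs with a median of 5.87%, and these cells had 4838 UMIs at the median. The ghrelin cells numbered 5 in sham 2, 4 in sham 3 and 2 in treat day 3. Their share of Ghrl ran from 1.71% to 51.2%, and they were shallow, with a median of 1430 UMIs.

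Hormones were kept apart from cell to cell with 1 exception. Of the 10 pairs that 5 hormones can form, 9 had no cell with at least 10 UMIs and 1% of UMIs from both. The exception was glucagon with pancreatic polypeptide, found together in 4 cells. At 10 UMIs of both without the percent limit, 1 further cell had Sst with Gcg and 1 had Sst with Ghrl. Iapp was seen in 26 of the 36 somatostatin cells at 890.1 CPM, in 4 of 7 pancreatic polypeptide cells at 95.7 CPM and in 3 of 6 glucagon cells at 183 CPM, but in 1 of 11 ghrelin cells, with 1 UMI. A UMI of Iapp occurred in 0.0158% of the other cells.

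**Figure D2:**
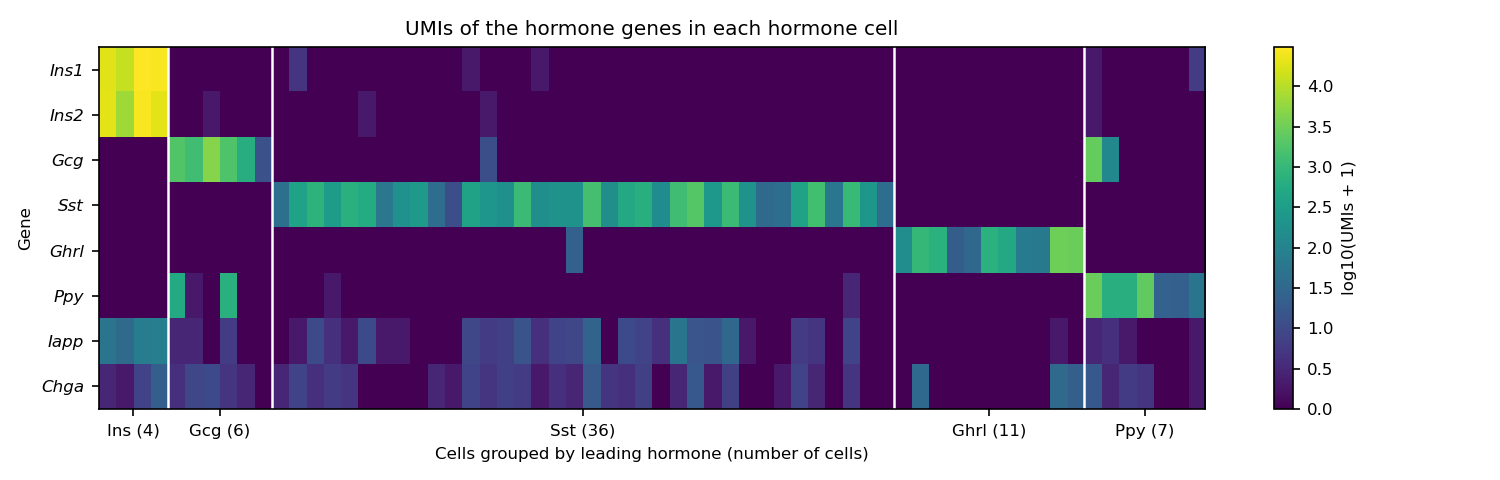
Each column is 1 of the 64 hormone cells, grouped by leading hormone, and each row is 1 of the 8 genes; colour is log10(UMIs + 1). Off the diagonal blocks the cells are near 0 except for Ppy in glucagon cells, Gcg in pancreatic polypeptide cells, and Iapp and Chga, which cross the groups.

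Chga differed from the other 7 genes in where it lay. Hormone cells held 20.8% of the 1428 Chga UMIs in cells. A further 66.9% lay in 9 cells with at least 10 Chga UMIs that were not hormone cells, of which 7 fell in clusters named biliary epithelial-like. The richest was a ctrl day 1 cell with 405 Chga UMIs of 18580, beside 23 UMIs of Chgb, 25 of Scg2 and 24 of Scg5. The next, from sham 3, had 181 Chga UMIs with 335 of Chgb, 18 of Slc18a1, a vesicular monoamine transporter, and 98 of Tac1, the substance P precursor. Others were 1 treat day 3 cell with 115 Chga and 249 Chgb UMIs, 1 treat day 1 cell with 73 Chga and 349 Chgb UMIs, and 1 treat day 7 cell with 66 Chga and 45 Cck UMIs. The rest had few companion UMIs. A sham 2 cell of 877 UMIs had 43 of Chga, 1 of Chgb, 1 of Scg2 and none of Epcam. Further ctrl day 1 cells had 43 and 19 Chga, 3 and 5 Chgb, and 67 and 52 Sst UMIs, under the 1% limit. A treat day 3 cell had 11 Chga and 3 Chgb UMIs. None of the 9 had a UMI of Tph1, which makes serotonin in enterochromaffin cells. These companion genes were picked after their values were seen.

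Genes that played no part in choosing the cells were then read in them. Of 14 endocrine markers (granins, convertases and transcription factors) 12 were in the features, and none is a member of the set. Their summed level, as CPM of the UMIs of all genes but the members (non-member CPM, the scale of the genes outside the set in hormone cells), was 2899, 5955 and 4035 in the hormone cells of sham 1, 2 and 3, against 7.85, 22.2 and 35.8 in the other cells of the same samples. In the ctrl samples of days 1, 3 and 7 it was 15053, 7577 and 8809 against 6.09, 9.22 and 6.86. In the treat samples it was 6711, 5996 and 4441 against 12.0, 9.36 and 7.19. The hormone cells were higher in 9 of 9 samples, by a mean log2 ratio of 9.01 ± 1.23 (SD, n = 9), and by 9.48 ± 0.88 (SD, n = 7) without sham 2 and sham 3. No test is given, since the cells were picked by hormone RNA after the data were seen. Sham 1 and ctrl day 3 had 1 hormone cell each, that of sham 1 with 3 marker UMIs. At least 3 of the 12 markers were detected in 51 of the 64 cells, and none in 4. The 51 held 4 of 4 insulin, 5 of 6 glucagon and 33 of 36 somatostatin cells. Among them were also 5 of 7 pancreatic polypeptide cells but only 4 of 11 ghrelin cells. Of the 117 marker UMIs of the ghrelin cells, 42, 38 and 23 lay in single cells.

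Of the 15 granule and processing genes, 11 were detected in the insulin cells, 13 in the glucagon cells, 15 in the somatostatin cells, 10 in the ghrelin cells and 10 in the pancreatic polypeptide cells. Scg5, the chaperone of convertase 2, was found in 4 of 4 insulin cells (2224 non-member CPM), 5 of 6 glucagon cells (3473), 29 of 36 somatostatin cells (957), 5 of 11 ghrelin cells (1381) and 5 of 7 pancreatic polypeptide cells (1182), against 0.776 in the other cells. Chgb, chromogranin B, was highest in the somatostatin cells, in 35 of 36 and at 3152, against 328 to 836 in the other kinds. Pcsk2, convertase 2, was found in every insulin cell (1943) and in 30 of 36 somatostatin cells (595), but had no UMI in the 11 ghrelin cells. Pcsk1, convertase 1, was detected in 3 insulin and 12 somatostatin cells and in no other kind. Scg2, secretogranin II, was found in 48 of the 64 cells. Of the 15 genes of this list, 14 had at least 3 UMIs in the hormone cells and over 2 times the level of the other cells. No share over all genes is given beside this count, so it is a description only.

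Genes of particular islet cell types were uneven among the 5 kinds. By the same measure over all 64 cells together, 10 of 11 beta cell genes and 3 of 5 delta and epsilon cell genes were over 2 times the other cells. So were 8 of 10 endocrine transcription factors and 8 of 12 gut hormone and amine genes. In the 4 insulin cells alone, 7 of the 11 beta cell genes were, and none of the 5 delta and epsilon cell genes was detected. No share over all genes is given beside these counts, so they are descriptions only. Slc2a2, the glucose transporter of beta cells, was at 937 non-member CPM in the insulin cells, in 3 of 4, and had 1 UMI elsewhere among the 64. Abcc8, a subunit of the beta cell potassium channel, was not limited to insulin cells and stood at 72.7 to 118 in the 5 kinds. Pdx1 was at 117 in the insulin and 72.4 in the somatostatin cells, where 13 of 36 had it, and Ero1b at 258 in the insulin cells and 15.2 to 36.4 in the kinds other than glucagon, where it had no UMI. Ucn3, made by mature beta cells and chosen after its values were seen, was in 4 of 4 insulin cells at 164, on 7 UMIs in all, against 0.00359 in cells with no leading hormone. Gc, vitamin D binding protein and an alpha cell gene, was in 5 of 6 glucagon cells at 2280.0 and in 6 of 7 pancreatic polypeptide cells at 1039.7. It was also at 983 in insulin and 872 in ghrelin cells, while the somatostatin cells had 15.2. Hhex, the delta cell transcription factor, was in 26 of 36 somatostatin cells at 381 and in 2 of 7 pancreatic polypeptide cells at 94.5, with no UMI in insulin, glucagon or ghrelin cells. Its level in cells with no leading hormone was 45.8. Rbp4, retinol binding protein and of the same list of delta and epsilon cell genes, was low in the somatostatin cells (11.4) and at 451, 545 and 441 in the glucagon, ghrelin and pancreatic polypeptide cells, against 37.6 in cells with no leading hormone. Acsl1, of that list too, was at 582 in the ghrelin cells and 26.7 in the somatostatin cells, against 12.0. Neurod1, Isl1, St18 and Pax6 were the endocrine transcription factors with most UMIs, and Neurod1 stood at 562 in insulin cells against 0.0287 in cells with no leading hormone.

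Pyy, peptide YY, had the most UMIs of the gut hormone genes. It was in 7 of 7 pancreatic polypeptide cells at 4695 non-member CPM, in 4 of 6 glucagon cells at 5647 and in 19 of 36 somatostatin cells at 3773, and in none of the insulin cells. Gast, gastrin, was carried almost alone by 1 treat day 7 somatostatin cell with 152 of the 157 Gast UMIs. Cck was in 9 somatostatin cells and 1 glucagon cell, and Calca in 10 somatostatin and 2 pancreatic polypeptide cells. Resp18, a granule protein on no list and chosen after its values were seen, led 4 of the 5 kinds and was second in the pancreatic polypeptide cells. It stood at 40567 non-member CPM in the ghrelin cells and 7.38 in cells with no leading hormone. Serpina1, the alpha-1 antitrypsin gene, also chosen after its values were seen, was in 9 of 11 ghrelin cells at 9851 against 24.8.

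**Figure D3:**
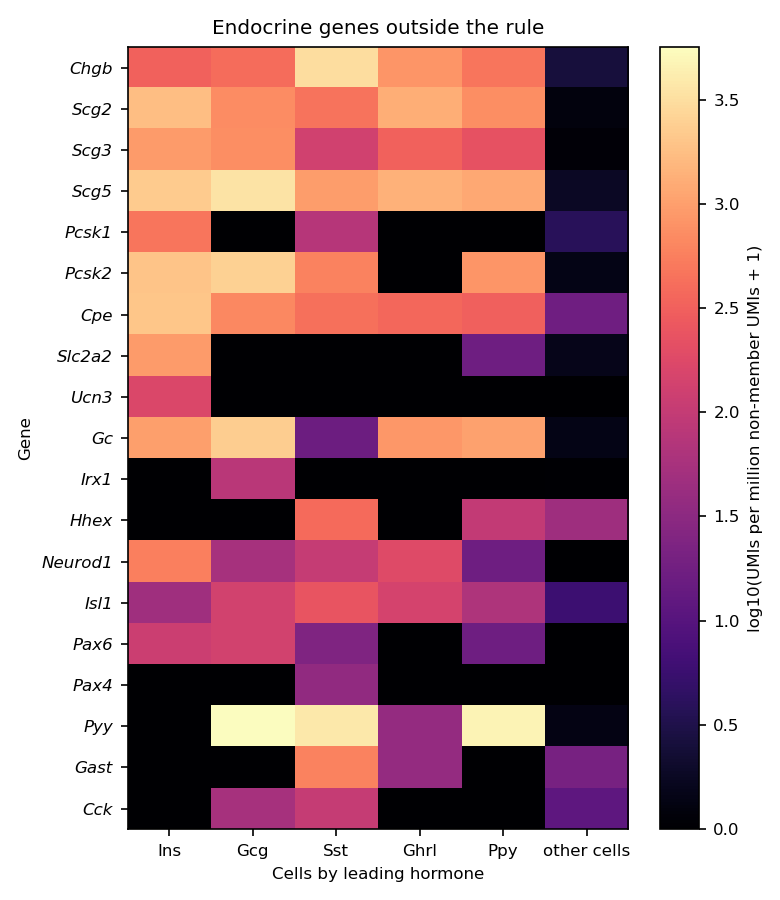
Rows are 19 genes taken from the lists, columns the 5 kinds of hormone cell and all other cells; colour is log10(non-member CPM + 1). Scg5, Scg2 and Chgb are bright in every hormone column and Pcsk2 in all but ghrelin, while Slc2a2 and Ucn3 stand out in insulin cells (937 and 164), and Hhex in somatostatin cells (381). Scg5, Scg2 and Chgb were found in 5, 7 and 5 of the 11 ghrelin cells.

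Lists for other functions were not high throughout the hormone cells. Acinar genes of the pancreas summed to 579 non-member CPM in the hormone cells and 473 in the others, and 1 of 18 was over 2 times the other cells (Cela1, at 131 and 60.9). The ghrelin cells stood at 1127. By sample, the 13 acinar markers went both ways, with 729 in hormone cells against 4004 in other cells of sham 3, 544 against 91.1 in treat day 1 and 311 against 53.4 in treat day 7. The list of receptors of the member hormones, which includes receptor partners, summed to 149.8 against 285. Its gene with most UMIs in hormone cells was Ramp2, a partner of the amylin and calcitonin receptors, at 85.3 against 142. Ramp1, a further partner, was at 32.3 against 108. The receptors Insr and Sstr3 went the other way, at 13.8 against 7.71 and 9.22 against 1.21, on 6 and 4 UMIs. Gut epithelium genes summed to 503 against 346, with 195 of their 218 UMIs from Tff1. Biliary epithelial markers summed to 9814 in the somatostatin cells, where Epcam was in 31 of 36, to 7234 in the ghrelin, 5750.1 in the pancreatic polypeptide, 5292 in the insulin and 1723 in the glucagon cells, against 4099 in the other cells. Fibroblast markers stood at 23781 in the glucagon cells and 328 in the insulin cells, against 9213 in cells with no leading hormone, and 892 of the 897 UMIs in the glucagon cells came from 1 cell of sham 3.

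Somatostatin cells varied between samples in what else they carried. Cartpt, the CART prepropeptide, which was chosen after its values were seen, was found in 22 of 23 sham cells and in all 7 ctrl day 1 cells, but in 1 of the 5 treat cells, with 1 UMI. Pyy was found in 7 of 10 somatostatin cells of sham 2 and 10 of 12 of sham 3, and in none of the 7 of ctrl day 1. The single ctrl day 7 cell had 274 Pyy UMIs and no Cartpt. Hhex was found in 16 of 23 sham, 5 of 8 ctrl and 5 of 5 treat cells. Cells of 1 sample share their source and the treat cells are 5 in all, so these counts carry no test.

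No cluster of cells was endocrine-like by the marker rule, at 41 clusters or at the finer resolution. The 64 cells fell into 14 clusters. Of the insulin cells all 4, with 4 glucagon cells, lay in a cluster of 1389 shallow cells that stayed unnamed and whose leading genes were those of fibroblasts. Its Ins1 level was 14630.0 CPM with its 13 hormone cells and 1.35 CPM without them. A cluster of 3841 cells with tuft cell genes, also unnamed, held 16 somatostatin and 4 ghrelin cells. Sst there was 1162 CPM with these cells and 3.50 CPM without them, and Ghrl was 963 and 2.96 CPM. Clusters named biliary epithelial-like held 14 somatostatin cells. One of them, led by Reg3g and Gpx2, kept 34.4 CPM of Sst after its hormone cells were left out.

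Hormone RNA outside cells followed the samples with hormone cells only in part. In empty barcodes, those with 100 UMIs or fewer, Ins1 was at 70.2, 202 and 75.4 CPM in sham 1, 2 and 3, at 3.51, 32.9 and 0 CPM at ctrl days 1, 3 and 7, and at 2.74, 0.0820 and 0.0814 CPM at treat days 1, 3 and 7. Sham 1 had this level with no insulin cell among its 2284 cells, which allows a share of up to 0.131%. Ins1 in the sham 1 cells was 2.40 CPM. Ratios of Ins1 to Ins2 in empty barcodes were 1.34, 1.45, 1.42, 1.65, 1.56 and 1.01 in the 3 sham samples, ctrl days 1 and 3 and treat day 1. Ghrl reached 41.2 CPM in the empty barcodes of treat day 7, which had no ghrelin cell among those kept. One treat day 7 barcode from another library had 1766 Ghrl UMIs of 68667 and was left out only for its 6583 genes, as was a sham 3 barcode with 2066 of 41754 in 6005 genes. Of the Ghrl UMIs in empty barcodes of treat day 7, 722 of 1012 came from 1 library, spread over 707 barcodes with at most 3 in one. The levels in cells with no leading hormone were below those in empty barcodes for Ins1, Ins2, Gcg, Sst, Ghrl and Ppy in each sample in which both were above 0, except Gcg at treat day 7 (2.06 against 0.570 CPM), where 264 of 274 Gcg UMIs in cells came from 1 cell under the 1% limit. Chga went the other way in 7 of 9 samples, for example at 4.85 against 1.89 CPM in ctrl day 1, and Iapp in treat day 1 (0.189 against 0.132 CPM) and treat day 7 (0.0450 against 0.0407 CPM).

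**Figure D4:**
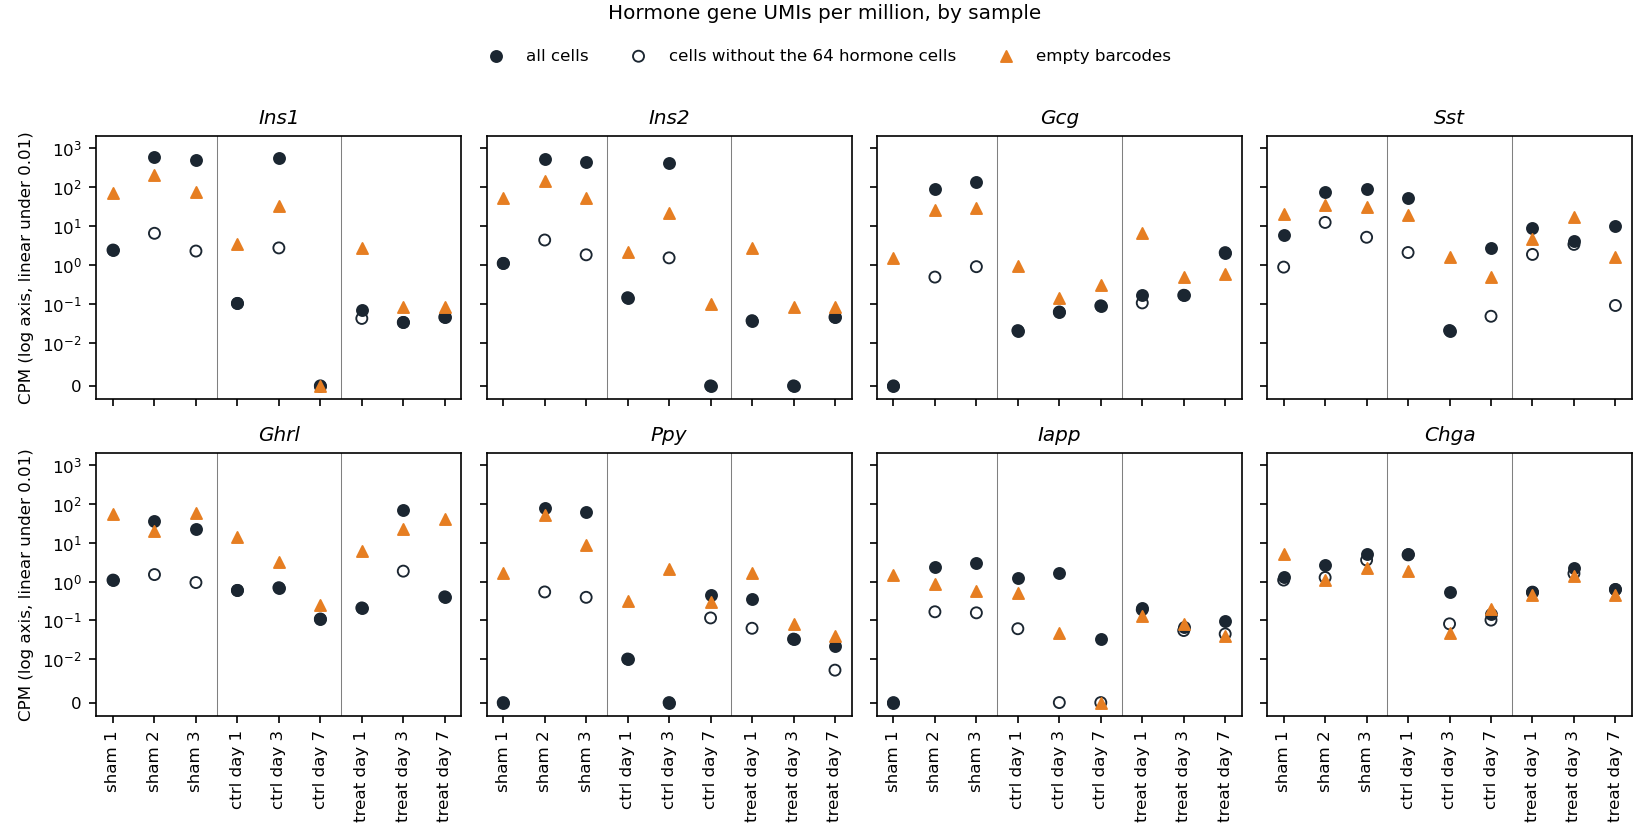
Each panel is 1 gene and each position on the x axis 1 sample; the y axis is CPM on a log axis that is linear under 0.01. Filled circles are all cells, open circles the cells left when the 64 hormone cells are taken out, and triangles the empty barcodes; for Ins1 in sham 2 these are 593, 6.46 and 202 CPM.

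A part of the hormone RNA in empty barcodes lay in barcodes whose first 10 of 16 bases matched those of a hormone cell of the same library. For insulin it was 5.84% of 5068 UMIs in the libraries with an insulin cell, while 0.0105% of the barcodes of those libraries matched. For Gcg it was 7.37%, for Sst 3.66%, for Ghrl 3.68% and for Ppy 11.4%, where 0.0137%, 0.0289%, 0.0195% and 0.0126% of the barcodes matched. These too cover only libraries with a cell of that hormone. Of the 2793 Ghrl UMIs in empty barcodes, 1841 lay in libraries without a ghrelin cell.

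Barcodes with too few genes to count as cells also met the limit of 10 UMIs and 1%. There were 103 with 400 genes or fewer, of which 31 were led by insulin, 28 by Sst, 36 by Ghrl, 4 by Gcg and 4 by Ppy, and 34 had 100 UMIs or fewer. The richest was a ctrl day 1 barcode with 3154 Ghrl UMIs of 3448 in 66 genes. Another, in sham 3, had 1632 insulin UMIs of 1840 in 174 genes. Ctrl day 1 had 9 such barcodes led by Ghrl although no ghrelin cell was kept there, and 3403 of its 3782 Ghrl UMIs lay in barcodes of over 100 UMIs with 400 genes or fewer.

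Hormone cells were a larger share of the cells in sham 2 and sham 3 than elsewhere. They were 1 of 2284 cells in sham 1 (0.0438%, exact 95% binomial interval 0.00111 to 0.244), 20 of 9236 in sham 2 (0.217%, 0.132 to 0.334) and 23 of 11101 in sham 3 (0.207%, 0.131 to 0.311). Ctrl day 1 had 7 of 12867 (0.0544%, 0.0219 to 0.112), ctrl day 3 had 1 of 7513 (0.0133%) and ctrl day 7 had 3 of 31635 (0.00948%). Treat day 1 had 3 of 22558 (0.0133%), treat day 3 had 3 of 16452 (0.0182%) and treat day 7 had 3 of 25769 (0.0116%). Sham 1 overlapped the ctrl samples.

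The mean share was 0.156% ± 0.0972 in sham and 0.0257% ± 0.0249 in ctrl (SD, n = 3 each), a difference of -0.130 percentage points that did not pass the two-sided exact permutation test (p = 0.200, where 3 against 3 cannot go below 0.1). Barcodes of any depth that met the limit were also counted, with the kept cells still as the denominator. The ratio was 0.426% ± 0.0697 in sham and 0.0831% ± 0.0922 in ctrl (SD, n = 3 each). It differed by -0.343 percentage points (exact permutation test, p = 0.1, the smallest possible). The added barcodes are not among the kept cells, so this ratio is a share neither of cells nor of barcodes. With each library as its own sample (9 against 3) the share of hormone cells differed by -0.129 percentage points (exact permutation test, p = 0.0182). The 9 ctrl libraries belong to 3 samples and are not known to be separate rats, so this p may be too small. The treat group had 0.0144% ± 0.00343 (SD, n = 3) and differed from ctrl by -0.0113 percentage points (exact permutation test, p = 0.800). Paired by day, treat minus ctrl was -0.0411, 0.00492 and 0.00216 percentage points at days 1, 3 and 7 (exact sign-flip permutation test, p = 1, where 3 pairs cannot go below 0.25). Both comparisons use the same ctrl samples. Acinar RNA outside cells was highest in sham. The 13 acinar markers, all detected in the empty barcodes of every sample, summed there to 1663, 26566 and 36157 CPM in sham 1, 2 and 3, to 388 to 470.2 CPM in ctrl and to 84.9 to 564 CPM in treat. In cells the same markers were at 131, 625 and 3987 CPM in sham and 115, 528 and 61.2 CPM in ctrl, where the groups overlapped, and cells named acinar-like numbered 0, 26 and 107 against 6, 48 and 39. Their part in the shares of hormone cells was not tested. Outside sham 2 and sham 3 there were 21 hormone cells, 14 of them led by Sst, and 15 had at least 3 endocrine markers.

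**Figure D5:**
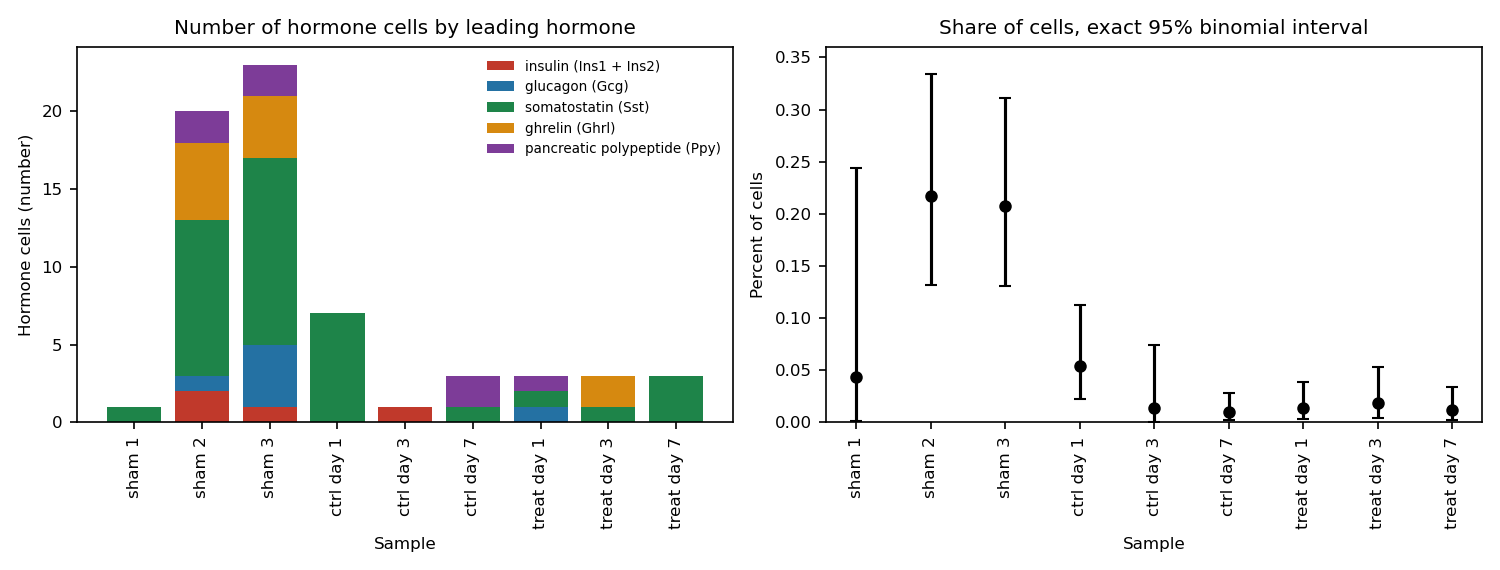
Left, the number of hormone cells in each sample, stacked by leading hormone; right, their percent of all cells with the exact 95% binomial interval. Sham 2 and sham 3, with 20 and 23 cells, stand above the other 7 samples, with 1 to 7.

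Summed over all cells, the levels of the hormone genes varied widely within groups. Ins1 was at 2.40, 593 and 484 CPM in sham 1, 2 and 3 and at 0.102, 569 and 0 CPM at ctrl days 1, 3 and 7. One cell gave 99.5% of the ctrl day 3 UMIs, and the groups overlapped. Sst was at 5.78, 73.1 and 90.5 CPM in sham and 53.6, 0.0204 and 2.63 CPM in ctrl, again with overlap. Ghrl was at 1.09, 37.0 and 22.6 CPM in sham and 0.592, 0.694 and 0.109 CPM in ctrl. All 3 ctrl samples lay below all 3 sham samples for Ghrl, as they did for 33.9% of the genes tested. Ppy was at 0, 77.5 and 60.3 CPM in sham and 0.0102, 0 and 0.442 CPM in ctrl, where sham 1 overlapped. Gcg was at 0, 86.7 and 133 CPM in sham and 0.0204, 0.0613 and 0.0884 CPM in ctrl. Sham 1 had 9168385 UMIs in cells. Read against the limit of 3 counts, its 0 for Gcg does not place it below the ctrl samples.

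Of the 8 genes, 7 passed the filter on low counts in ctrl against sham and Gcg did not. Without the filter Gcg had a log2 fold change of -9.95 (standard error 2.17, unadjusted p = 0.00229, adjusted p = 0.0652 in edgeR). None of the 7 was called at an adjusted p under 0.05 by edgeR's quasi-likelihood test, which called 2.38% of 15194 genes in either direction and 1.19% as lower in ctrl. At an unadjusted p under 0.05 there were 2 of the 7, Ghrl (log2 fold change -5.22, standard error 1.35, adjusted p = 0.0747) and Ppy (-7.75, standard error 2.30, adjusted p = 0.0971). Of all 15194 genes tested, 4303 were under the same limit, a share like that of the members. Ins2 had -0.97 (standard error 2.91) and Sst -1.29 (standard error 1.89). Without ctrl day 3, Ins2 had -11.90, and without ctrl day 1, Sst had -5.06, neither of them called. DESeq2 called these same 2, with adjusted p = 5.64e-05 for Ghrl and 0.0390 for Ppy, where it called 22.1% of 15162 genes. Without sham 1, edgeR called 3 of the 8 (Gcg -10.51, Ghrl -5.76 and Ppy -8.26) and 10.1% of genes. However, sham 1 was the sham sample that overlapped ctrl for Ppy and had no Gcg UMI in cells. Gcg passed the filter without sham 1 through sham 2 and sham 3, so these calls are no support for a difference. Over all barcodes in place of cells the Ghrl value was -1.94 (adjusted p = 0.431), and over cells without the 64 it was -1.05 (adjusted p = 0.349).

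In treat against ctrl, with the day in the model, 5 of the 8 genes were tested and Ins1, Ins2 and Ppy did not pass the filter. Ghrl was at 0.210, 70.4 and 0.405 CPM at treat days 1, 3 and 7, and Sst at 8.97, 3.99 and 10.1 CPM. Gcg was at 0.168, 0.165 and 2.06 CPM in treat and 0.0204, 0.0613 and 0.0884 CPM in ctrl, so that all 3 treat samples lay above all 3 ctrl samples, as they did for 5.88% of the genes tested. The ctrl levels rest on 2, 3 and 13 UMIs. None of the 5 was called by edgeR, which called 0 of 15791 genes (0%), with 687 at an unadjusted p under 0.05. Gcg had a log2 fold change of 3.23 (standard error 0.72, unadjusted p = 0.00831, adjusted p = 0.914), and DESeq2 called it (3.13, adjusted p = 0.0447) among 107 genes. In treat day 7, 264 of the 274 Gcg UMIs came from 1 cell. The edgeR value was 2.16 to 3.90 with a sample left out and 1.60 over every barcode. Sst had 1.41 (standard error 1.97, adjusted p = 0.935) and Ghrl 2.12 (standard error 2.09, adjusted p = 0.918). The Ghrl value was 0.05 with the empty-barcode profile taken off and 5.73 without the day term, neither of them called.

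Companion genes summed over all cells gave no call either. In ctrl against sham, 14 of the 15 granule and processing genes were tested and none was called in either direction, with a median log2 fold change of -0.94 against -0.01 over all genes. The smallest p-values in that list were those of Pcsk1, convertase 1, at 2.88 ± 0.53 (SE; edgeR, adjusted p = 0.0502), and of Pam, which amidates peptides, at -2.35 ± 0.49 (SE; edgeR, adjusted p = 0.0566). Ddc, which makes amines, had -3.06 (adjusted p = 0.0532 in edgeR) and was 1 of 9 tested gut hormone and amine genes. Isl1 and Rfx6, of the endocrine transcription factors, had -2.57 and -3.05 (adjusted p = 0.0707 and 0.0733 in edgeR). The 16 acinar genes tested had a median of -2.59, with Prss2, a trypsinogen, at -4.48 (adjusted p = 0.0966 in edgeR). The other lists had medians of -0.70 (7 beta cell genes tested), 0.08 (3 alpha cell genes), 0.36 (4 delta and epsilon cell genes), -1.34 (the gut hormone and amine genes), -0.32 (8 receptors) and -0.06 (5 gut epithelium genes). In treat against ctrl no gene of any list was called, and the median was 0.24 for the granule list, 0.56 for 10 gut hormone and amine genes and -2.52 for the acinar list, against 0.00 over all genes.

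Over 115 sums of a cell class in a sample, with genes of at least 30 UMIs, the pattern of log2(CPM + 1) most like Ins2 was that of Wasf3 (Pearson r = 0.87), followed by Scg3 (0.82), Nkain2 (0.77), Scg2 (0.76) and LOC501297 (0.75). For Sst they were Chgb (0.78), Cartpt (0.77), Grik2, Pld5 and Pyy (0.71 each). For Gcg they were Il9 (0.84), Fam183a (0.82), Actl6b (0.79), Scgn and Shank1 (0.77 each), and for Ghrl Il9, Fam183a (0.71 each), Nmu (0.65), Il5 and Actl6b (0.64 each). The points share libraries and depth, and Il9, Fam183a and Actl6b had 39, 33 and 39 UMIs. Clusters left unnamed were pooled as a class, which held 40 of the 64 hormone cells beside unlike cells. Genes of different cells were thus summed together there, so the coefficients are descriptions only.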

How the data were processed

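As the authors deposited them, the matrices hold raw UMI counts of all barcodes; Cell Ranger 5.0.1 and Seurat 3.2.0 are named in the submitters' processing notes, and the genome build is not given in the sources used here. One library of treat day 3 was not analysed here. A cell had more than 400 and fewer than 6000 genes, with mitochondrial UMIs under 25% and hemoglobin UMIs under 3%. In ctrl day 3, 8116 of the 14793 barcodes with more than 400 genes passed these limits. Simulated doublets gave each cell a score, and scores over the library's 92.5 percentile were dropped. Cells were clustered without the 8 genes (2000 variable genes, 30 components, Leiden resolution 0.9; igraph 0.11.9). No batch correction or removal of free RNA was applied. Precision is limited by the depth, 9168385 to 190847512 UMIs in cells per sample. A level of 0 was read against a limit of 3 counts.

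The 8 genes and the gene lists were chosen with earlier results of these data known. Counts were summed per sample and tested with edgeR 4.0.16 (quasi-likelihood, TMM, filterByExpr, Benjamini-Hochberg adjustment); DESeq2 1.42.0 was an alternative. Both tools were tested on simulated counts with 1 dispersion for all genes, which does not cover genes as variable as the 8. Shares were compared with exact permutation tests (scipy 1.17.1). As no cluster was endocrine-like, the hormone cells, their shares and the marker ratio, chosen after seeing the data, took the place of the planned endocrine-like cells. Named genes were the 8 members, the 5 genes most like Ins2, Gcg, Sst and Ghrl (the minimum of 30 UMIs was added later), and from each list up to 4 genes with most UMIs in hormone cells and up to 2 with the smallest p; others are said to be chosen later. No sequences are printed. One gene of the lists is not reported here.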

Additional observations from a re-analysis of the deposited data

Results flagged for a closer look

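Barcodes outside the comparisons carried hormone RNA. With 400 genes or fewer, 103 barcodes had at least 10 UMIs and 1% of their UMIs from 1 hormone, more than the 64 cells kept. They numbered 7, 24 and 25 in sham 1, 2 and 3, 17, 3 and 0 at ctrl days 1, 3 and 7, and 13, 11 and 3 at treat days 1, 3 and 7. Their cause was not tested.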

How the results depend on the processing

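Calls of the 8 genes in ctrl against sham rested on the tool and the samples: edgeR called 0, DESeq2 2, the fit with each library as its own sample 3, and leaving out 1 sample gave 0 to 3, with 3 only without sham 1. In treat against ctrl the count was 0, with 1 under DESeq2 and 0 to 0 with a sample left out. Over all genes, 362 were called in ctrl against sham, and 3352 with DESeq2, 1129 when library sizes replaced TMM factors, 604 with doublets kept, 551 over every barcode, 1184 with each library as its own sample and 0 to 1578 with a sample left out (0 without sham 2, sham 3, ctrl day 3 or ctrl day 7). In treat against ctrl 0 were called, and 107 with DESeq2. Without TMM the ctrl against sham calls shifted from 181 higher and 181 lower to 142 and 987, with a median of -0.37. The share of hormone cells in ctrl minus sham kept its sign in 13 alternatives. It was -0.186 to -0.0998 with a sample left out and -0.129 for single libraries. At a limit of 5% it was -0.0761, and -0.0968 with at least 3 endocrine markers. In treat minus ctrl it ran from -0.0195 to 0.00300 with a sample left out, positive without ctrl day 1. The ratio of hormone barcodes of any depth to kept cells, which is no share of cells, differed by -0.343 in ctrl minus sham and -0.0220 in treat minus ctrl. Shares of endocrine-like cells were 0 in all samples, and -0.130 and -0.0113 percentage points apart when cells with 1% of UMIs from hormones took their place. At a limit of 5% there were 41 hormone cells. At the limit of 1% there were 21 without sham 2 and sham 3. The marker ratio kept its direction, at 8.76 to 9.29 with a sample left out. With a sample left out, log2 fold changes in ctrl against sham ran from -12.59 to -0.10 for Ins1, -11.90 to -0.37 for Ins2, -5.06 to -0.69 for Sst, -12.08 to -7.15 for Ppy and -1.28 to -0.10 for Iapp. Directions turned for Chga in ctrl against sham (0.07 without the hormone cells, -2.98 to 0.29 with a sample left out) and, in treat against ctrl, for Sst (-1.43 without the day term, -0.47 to 3.14), Chga (-0.83, -0.81 to 2.07) and Ghrl (-0.03 to 4.97). The causes were not tested. Fits within endocrine-like cells could not be run, as there were none. The ctrl and treat labels share days and carry no replicate numbers; the treat against ctrl fits hold the day as a block, and with this pairing the share differed by -0.0113, the same call. All shares rest on 1 to 23 cells per sample.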
